A study of Mus musculus with 12 samples.

Results

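The 9 genes described here are 7 CC chemokine ligands (Ccl2, Ccl3, Ccl4, Ccl6, Ccl7, Ccl8 and Ccl9) and 2 of their receptors (Ccr1 and Ccr2), chosen by symbol from the 53431 gene identifiers of the count table. They were measured by RNA sequencing of adipose tissue in 12 libraries. Chemokines are small secreted proteins that bind receptors coupled to G proteins on leukocytes and direct their movement, and the CC family carries 2 adjacent cysteines near the amino end. Ccl2 and Ccl7 attract monocytes through Ccr2, Ccl8 is a close relative of both, and Ccl3, Ccl4, Ccl6 and Ccl9 are made by macrophages and other myeloid cells. Ccl3, Ccl6 and Ccl9 act through Ccr1. In fat, Ccl2 and Ccr2 are best known for the arrival of blood monocytes, which become macrophages in obese tissue.

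Of the 12 libraries, 4 were labelled Bbs2-/- with Genz-667161, an inhibitor of glucosylceramide synthase, 4 were labelled Bbs2-/- with no treatment, and 4 were labelled WT. All mice were on a mixed C57BL/6 x 129/SvJ background and fat was taken at 6 months of age, with the inhibitor given at 0.033% of feed weight between 2 and 6 months. The Bbs2 protein is part of the BBSome, which carries membrane proteins in primary cilia, and its loss causes obesity. The inhibitor was given to Bbs2-/- mice only, so there was no treated WT group, and neither the fat depot nor the sex was given. Whether each library came from its own mouse is not said in the labels, so the spread behind the p-values may be technical. Below, treated and untreated mean the libraries labelled so, both labelled Bbs2-/-.

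Library totals ran between 16317865 and 20224200 estimated counts. Bbs2 itself was at 61.5 ± 5.30 CPM (counts per 1e6 counts of the library) in treated, 61.9 ± 9.41 in untreated and 12.5 ± 0.267 in WT libraries (SD, n = 4 each), so its counts were higher where the label names a loss of Bbs2, and every direction below rests on the labels. Adipocyte marker genes were present in all libraries, with a 12-gene sum of 29012 to 44458 CPM in treated, 14567 to 18049 CPM in untreated and 26410 to 46367 CPM in WT libraries, and none of the 12 was at 0. The summed level of 20 macrophage genes was 889 to 2250 CPM in treated, 7613 to 10409 CPM in untreated and 905 to 3355 CPM in WT libraries, with none of the 20 at 0. Of these 20 genes edgeR called 16 higher in untreated than in WT libraries (DESeq2 14), against 19.6% of all tested genes, and 18 lower in treated than in untreated libraries (DESeq2 16), against 18.8% of all tested genes. Between treated and WT libraries edgeR, DESeq2 and limma-voom each called 0 of them, with 0 at an unadjusted p under 0.05 in edgeR. Of all tested genes edgeR called only 0.257% in that comparison. Some other cell type lists, but not all, were also at higher sums in untreated libraries. The B cell list was at 7.19 to 28.0 CPM in treated, 63.1 to 114 CPM in untreated and 4.85 to 8.43 CPM in WT libraries, and the neutrophil list at 13.1 to 38.4 CPM in treated, 62.7 to 83.8 CPM in untreated and 19.9 to 36.7 CPM in WT libraries. Of the 10 neutrophil genes 4 could be tested, and 0 to 4 were at 0 in each library. In untreated libraries S100a8 averaged 41.8 CPM and Csf3r 23.7 CPM, most of that sum, while S100a9 averaged 1.08 CPM. The fibroblast list was at 1601 to 2028 CPM in treated, 3051 to 3580 CPM in untreated and 1400 to 2520 CPM in WT libraries, and the T and NK cell list at 9.13 to 23.7 CPM in treated, 21.9 to 36.5 CPM in untreated and 12.5 to 13.7 CPM in WT libraries. The dendritic cell list was lower in untreated libraries, at 30.4 to 38.7 CPM, against 42.2 to 45.5 CPM in treated and 42.2 to 53.7 CPM in WT libraries. Sums of 13 lipid-associated macrophage genes overlapped between the groups. They were at 22120 to 25574 CPM in treated, 21920 to 30945 CPM in untreated and 21720 to 24889 CPM in WT libraries. Of the 13 genes edgeR called 8 higher in untreated than in WT libraries, against 19.6% of all tested genes. In these bulk samples fewer cells of a type and less RNA per cell cannot be told apart, and the part of macrophage RNA, or of RNA of these other cell types, in each result below was not tested beyond the values given.

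The genes lie in 3 blocks of the mouse genome (mm10). Ccl2, Ccl7 and Ccl8 lie within 81229 bases of chromosome 11, between 82035571 and 82116799. Ccl9, Ccl6, Ccl3 and Ccl4 lie within 91765 bases of the same chromosome, between 83572919 and 83664683, with the first 3 on the minus strand and Ccl4 on the plus strand. Ccr1 and Ccr2 lie within 151434 bases of chromosome 9, between 123962124 and 124113557. Ccl2 overlaps the opposite-strand gene Gm17268 and Ccl6 overlaps E230016K23Rik, so their counts are uncertain because the strand setting of the counting is not given in the sources used here. The Ccr2 counts were not whole numbers in any of the 12 libraries, as happens when reads are shared between genes, and the level of Ccr2 is uncertain. The other 8 genes had counts within 1e-06 of a whole number in all 12 libraries.

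RefSeq promoter windows of 300 bases, with 250 before and 50 after the gene start (GRCm38.p6), were matched by symbol for 6 of the 9 genes, namely Ccl3, Ccl6, Ccl8, Ccl9, Ccr1 and Ccr2. Entries for Ccl2, Ccl4 and Ccl7 were not matched. The windows of Ccl6 and Ccl9 are shown because these neighbours had the most similar profiles of any pair of the 9 genes, and that of Ccl8 because its values spread most within groups. Capitals mark the 3 stretches of at least 10 bases, 34 bases in all, that are identical in an alignment of the Ccl6 window (chr11:83593038-83593337, minus strand) and the Ccl9 window (chr11:83578587-83578886, minus strand). In the Ccl8 window (chr11:82114935-82115234, plus strand) capitals mark a TATA box, TATAAA, that starts 32 bases before the gene start.
Ccl6: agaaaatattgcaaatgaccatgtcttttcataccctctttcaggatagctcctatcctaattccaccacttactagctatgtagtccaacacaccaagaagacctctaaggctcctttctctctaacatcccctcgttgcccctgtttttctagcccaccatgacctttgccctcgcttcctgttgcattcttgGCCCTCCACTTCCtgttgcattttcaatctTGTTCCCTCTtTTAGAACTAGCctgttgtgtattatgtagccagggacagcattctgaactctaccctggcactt
Ccl9: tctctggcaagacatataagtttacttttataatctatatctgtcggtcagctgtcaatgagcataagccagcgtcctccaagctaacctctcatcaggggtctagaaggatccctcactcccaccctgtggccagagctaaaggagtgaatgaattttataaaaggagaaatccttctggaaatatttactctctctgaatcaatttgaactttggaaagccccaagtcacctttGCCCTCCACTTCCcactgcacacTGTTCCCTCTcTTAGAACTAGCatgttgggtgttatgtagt
Ccl8: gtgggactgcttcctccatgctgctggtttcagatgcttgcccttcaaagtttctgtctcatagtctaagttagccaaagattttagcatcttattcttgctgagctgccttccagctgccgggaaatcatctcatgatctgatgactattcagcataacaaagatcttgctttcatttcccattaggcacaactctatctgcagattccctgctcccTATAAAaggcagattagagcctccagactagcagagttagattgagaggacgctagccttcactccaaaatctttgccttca

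Ccl6 and Ccl9 shared a run of 13 bases, gccctccacttcc, the longest over the 15 pairs of the 6 windows, while the other 14 pairs shared runs of 7 to 9 bases. Over the whole windows the pair was 47.1% identical in a global alignment, within the 42.7 to 50.7% of the other pairs. The motifs searched, on both strands, were the TATA box spelled above, AP-1 with the letters TGANTCA, C/EBP with the letters TTGCNNAA, the PU.1 core with the letters GAGGAAGT, and the NF-kB consensus. The Ccl9 window held all of a TATA box at bases -92 to -87 on the plus strand, which overlaps another at -94 to -89 on the minus strand, a further one at -224 to -219, an AP-1 match at -53 to -47 that reads the same on both strands, and an NF-kB match at -35 to -26 on the minus strand. Ccl8 held the TATA box alone, and the windows of Ccl3, Ccl6, Ccr1 and Ccr2 held none of these motifs. Among 32544 distinct mouse promoter windows, 13.6% held the TATA box, 7.79% the AP-1, 10.8% the C/EBP, 3.11% the PU.1 and 4.53% the NF-kB motif.

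The first comparison asked how adipose tissue of libraries labelled Bbs2-/- without inhibitor differed from that of libraries labelled WT. Of the 9 genes 7 were higher and none lower at an adjusted p under 0.05 (edgeR quasi-likelihood test, Benjamini-Hochberg over 15968 tested genes), against 19.6% of all tested genes called higher. The 7 were Ccl2, Ccl3, Ccl4, Ccl6, Ccl7, Ccl9 and Ccr2. The groups did not overlap for 6 of the 7 ligands, against 19.5% of all tested genes that were higher without overlap. The median log2 fold change over the 9 genes was 2.13, and over all tested genes it was -0.02. All 9 genes passed the filter on low counts, but Ccl3 and Ccl4 passed only through the untreated group, in which they were highest. Without these 2 genes, 5 of 7 were higher, 4 of them without overlap, and the median log2 fold change was 1.61.

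In the second comparison, of treated with untreated Bbs2-/- libraries, 7 of the 9 genes were lower and none higher, against 18.8% of all tested genes called lower. These were Ccl2, Ccl3, Ccl4, Ccl6, Ccl7, Ccl9 and Ccr1, so Ccr1 took the place of Ccr2. The groups did not overlap for the same 7 genes, against 20.7% of all tested genes that were lower without overlap. The median log2 fold change was -1.96, against 0.03 over all tested genes. Without Ccl3 and Ccl4, 5 of 7 were lower, all 5 without overlap, with a median of -1.88. The 2 comparisons share the untreated libraries, so the members' values are given side by side and not as separate support. In the third comparison, of treated Bbs2-/- with WT libraries, edgeR called 0 of the 9 genes, against 0.257% of all tested genes in either direction, 0.175% higher and 0.0814% lower. At an unadjusted p under 0.05 it gave 3, namely Ccl6, Ccl9 and Ccr1, all lower in treated libraries, DESeq2 called 1 (Ccl9, -1.05, adjusted p = 0.0358), and limma-voom called 0.

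**Figure D1:**
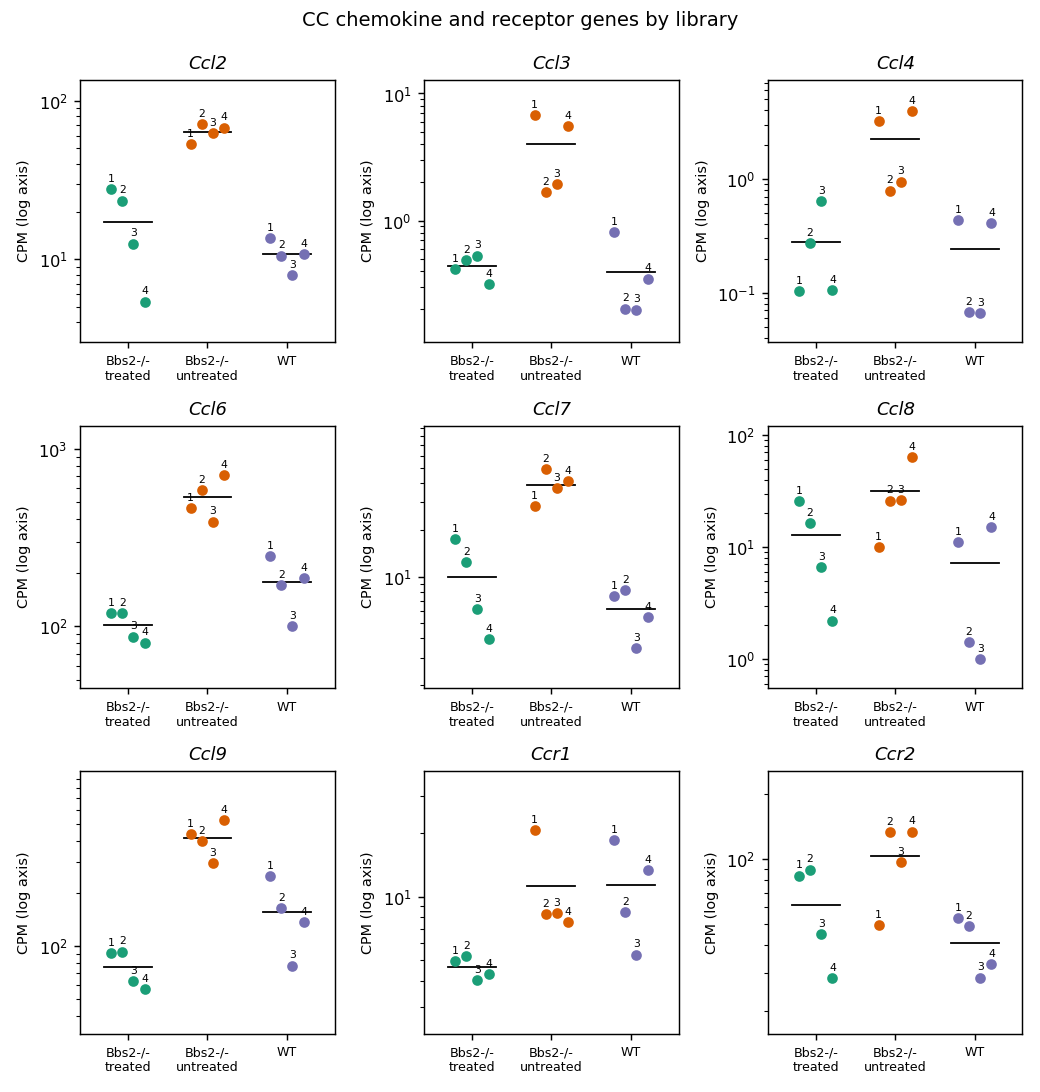
CPM of the 9 genes on log axes in the 12 libraries, with treated Bbs2-/-, untreated Bbs2-/- and WT libraries left to right. Points are libraries with their replicate number and bars are arithmetic means of 4 libraries. The untreated libraries lie above both other groups for Ccl2, Ccl3, Ccl4, Ccl6, Ccl7 and Ccl9, whereas for Ccl8, Ccr1 and Ccr2 the untreated and WT libraries overlap.

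Ccl2 (ENSMUSG00000035385.5, chromosome 11, 82035571 to 82037453, plus strand) encodes the main ligand of Ccr2. It was at 27.7, 23.4, 12.5 and 5.40 CPM in treated libraries 1 to 4, at 53.6, 71.4, 62.4 and 67.7 CPM in untreated libraries 1 to 4, and at 13.6, 10.5, 7.96 and 10.8 CPM in WT libraries 1 to 4. All 4 untreated libraries were above every other library, and the treated libraries spanned the WT range on both sides. The log2 fold change was 2.57 between untreated and WT libraries (SE 0.40, edgeR adjusted p = 0.000665), a 5.93-fold difference. Treated libraries were lower than untreated ones, with a log2 fold change of -1.88 (SE 0.39, adjusted p = 0.00319). Between treated and WT libraries the difference of 0.68 did not pass (95% interval -0.17 to 1.53, adjusted p = 0.570). The spread within treated libraries went with the macrophage sum, which was highest in treated 1 (2250 CPM) and lowest in treated 4 (889 CPM), the libraries with the most and the least Ccl2.

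Ccl7 (ENSMUSG00000035373.2, chromosome 11, 82045712 to 82047525, plus strand) encodes another monocyte attractant that binds Ccr2, and it lies next to Ccl2. It was at 17.4, 12.4, 6.14 and 3.93 CPM in treated, 28.3, 49.4, 37.0 and 41.1 CPM in untreated, and 7.51, 8.18, 3.45 and 5.47 CPM in WT libraries. As with Ccl2, no untreated library overlapped another group, treated 1 was the highest and treated 4 the lowest treated library. The log2 fold change was 2.66 between untreated and WT libraries (SE 0.43, edgeR adjusted p = 0.000811) and -1.96 between treated and untreated libraries (SE 0.42, adjusted p = 0.00373). Treated and WT libraries differed by 0.70 (95% interval -0.22 to 1.62, adjusted p = 0.595), which did not pass. Over the 12 libraries the centred log2 CPM profiles of Ccl2 and Ccl7 lay 0.23 apart (root mean square distance in log2 units), and the closest gene outside the family was the fractalkine receptor gene Cx3cr1 for Ccl2 (0.29) and the MHC class II accessory gene H2-DMb1 for Ccl7 (0.31), out of 12049 genes.

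Ccl8 (ENSMUSG00000009185.2, chromosome 11, 82115185 to 82116799, plus strand) encodes an inflammatory chemokine of the same block. It was at 25.6, 16.3, 6.67 and 2.20 CPM in treated, 9.95, 26.0, 26.4 and 64.0 CPM in untreated, and 11.1, 1.42, 0.995 and 15.2 CPM in WT libraries. The 3 groups overlapped, with WT 1, WT 4, treated 1 and treated 2 all above untreated 1. Neither untreated against WT (2.13, SE 0.94, 95% interval 0.06 to 4.19, edgeR adjusted p = 0.0938) nor treated against untreated (-1.32, 95% interval -3.31 to 0.68, adjusted p = 0.280) passed the test. Treated and WT libraries differed by 0.81 (95% interval -1.22 to 2.83, adjusted p = 0.815). The WT libraries with more Ccl8 also held RNA of ciliated epithelium, with a 10-gene sum of 16.1 CPM in WT 1 and 42.8 CPM in WT 4, against 6.62 CPM in WT 2 and 4.51 CPM in WT 3. The same list was at 37.7 and 34.2 CPM in treated 1 and treated 3, at 9.80 and 5.04 CPM in treated 2 and treated 4, and at 5.51 to 9.11 CPM in untreated libraries, so treated 1 was highest and treated 4 lowest of their group in both the list and Ccl8, while treated 3 had more of the list and less Ccl8 than treated 2. None of the 10 genes was at 0 in WT 1, WT 4, treated 1 and treated 3, and 3 to 5 of them were at 0 in each other library. A list of 8 epididymis genes summed to 1084 CPM in WT 1, 0.203 CPM in WT 2, 169 CPM in WT 3 and 10.2 CPM in WT 4, against at most 1.76 CPM in any treated and 0.378 CPM in any untreated library. Of the 8 genes 7 were at 0 in WT 3, so its sum rests on a single gene. In WT 1 the sum was almost all Crisp1, at 1082 CPM, which was at 0 in WT 3. A list of 5 lymph node genes summed to 2.11, 11.3, 13.4 and 48.7 CPM in untreated libraries 1 to 4, the order of Ccl8 in these libraries, against 0.525 to 7.97 CPM in treated and 0.541 to 1.86 CPM in WT libraries. Of these 5 genes 2 could be tested, and 1, 0, 1 and 2 were at 0 in untreated libraries 1 to 4, so few genes make this order. The part of any of these lists in the level of Ccl8 was not tested. Without WT 1, WT 4, treated 1 and treated 3 the difference between untreated and WT libraries was 4.70 (SE 1.20, adjusted p = 0.0207), a call that the fit of all 12 libraries did not give. The WT libraries left in that fit were WT 2 and WT 3 alone, those with the least Ccl8 of their group. The larger difference follows from which libraries were left out, so it is no separate support. The outside gene nearest to Ccl8 in profile was Rab43, at 0.88, the largest such distance of the 9 genes.

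Ccl6 (ENSMUSG00000018927.3, chromosome 11, 83587882 to 83593087, minus strand) encodes a mouse chemokine made by macrophages and other myeloid cells that acts through Ccr1. It was at 118, 119, 87.3 and 80.8 CPM in treated, 464, 586, 389 and 713 CPM in untreated, and 248, 171, 99.9 and 188 CPM in WT libraries. Each untreated library was above each other library, and only WT 3 among the WT libraries fell within the treated range. Untreated libraries were higher than WT libraries by 1.61 on the log2 scale (SE 0.27, edgeR adjusted p = 0.000846). Treated libraries were lower than untreated ones, with a log2 fold change of -2.41 (SE 0.27, adjusted p = 0.000120), the smallest p of the 9 genes in that comparison. Treated libraries differed from WT libraries by -0.80 (95% interval -1.38 to -0.23, adjusted p = 0.297), which did not pass after adjustment.

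Ccl9 (ENSMUSG00000019122.8, chromosome 11, 83572919 to 83578636, minus strand) encodes a second mouse chemokine of this kind, which attracts myeloid cells through Ccr1. It was at 90.7, 92.9, 62.7 and 56.7 CPM in treated, 437, 397, 297 and 524 CPM in untreated, and 250, 165, 77.2 and 136 CPM in WT libraries. The untreated libraries stood above all others, and WT 3 alone among the WT libraries was below the 2 highest treated libraries. The log2 fold change was 1.40 between untreated and WT libraries (SE 0.31, edgeR adjusted p = 0.00482), -2.45 between treated and untreated libraries (SE 0.33, adjusted p = 0.000283) and -1.05 between treated and WT libraries (95% interval -1.74 to -0.37, adjusted p = 0.242). The last was not called by edgeR and was called by DESeq2. Ccl6 and Ccl9 had the smallest distance of the 36 pairs of members, 0.18. The nearest other genes were Gas7, which encodes a growth arrest protein, for Ccl6 (0.25) and the tyrosine kinase gene Syk for Ccl9 (0.27).

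Ccl3 (ENSMUSG00000000982.5, chromosome 11, 83647844 to 83649355, minus strand) encodes an inflammatory ligand of Ccr1 that activated macrophages release. It had 8, 9, 10 and 6 counts in treated, 131, 34, 39 and 118 counts in untreated, and 15, 3, 3 and 6 counts in WT libraries. That is 0.315 to 0.529 CPM in treated, 1.68 to 6.75 CPM in untreated and 0.199 to 0.817 CPM in WT libraries. All untreated libraries were above the others, with untreated 1 and 4 well above untreated 2 and 3. The log2 fold change was 3.30 between untreated and WT libraries (SE 0.57, edgeR adjusted p = 0.00106) and -3.17 between treated and untreated libraries (SE 0.57, adjusted p = 0.00123). With so few counts outside the untreated group, a difference between treated and WT libraries had a wide interval (0.13, 95% interval -1.15 to 1.41, adjusted p = 0.972).

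Ccl4 (ENSMUSG00000018930.3, chromosome 11, 83662584 to 83664683, plus strand) encodes an inflammatory chemokine and lies next to Ccl3. It had 2, 5, 12 and 2 counts in treated, 63, 16, 19 and 83 counts in untreated, and 8, 1, 1 and 7 counts in WT libraries. Again untreated 1 and 4 were the highest, and treated 3 came close to untreated 2 without reaching it (0.635 and 0.790 CPM). The log2 fold change was 3.11 between untreated and WT libraries (SE 0.79, edgeR adjusted p = 0.00846) and -2.97 between treated and untreated libraries (SE 0.77, adjusted p = 0.0103). Without WT 2 and WT 3, whose library names in the sample descriptions lack the prefix with the word merged that all others carry, the first difference was 2.39 and did not pass (adjusted p = 0.0903). Treated and WT libraries differed by 0.15 (95% interval -1.68 to 1.97, adjusted p = 0.980). The profiles of Ccl3 and Ccl4 were 0.45 apart, and the adaptor gene Dok3 was the nearest outside gene to both (0.43 and 0.64).

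**Figure D2:**
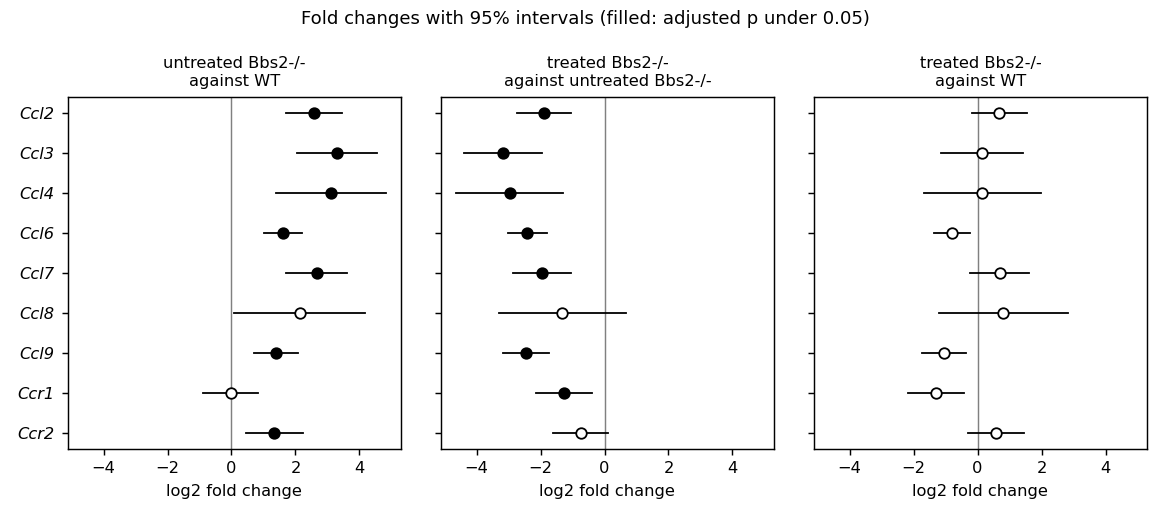
Log2 fold changes of the 9 genes with 95% intervals in the 3 comparisons, from 1 edgeR fit of 12 libraries, with positive values for higher levels in the group named first. Filled points had an adjusted p under 0.05. Of the 9 genes 7 were called higher in the left panel, 7 lower in the middle panel and 0 in the right panel, where the intervals of Ccl6, Ccl9 and Ccr1 lay below 0.

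Ccr1 (ENSMUSG00000025804.5, chromosome 9, 123962124 to 123968692, minus strand) encodes a receptor on monocytes, macrophages and other leukocytes. It was at 4.97, 5.23, 4.02 and 4.30 CPM in treated, 20.8, 8.30, 8.39 and 7.60 CPM in untreated, and 18.6, 8.45, 5.31 and 13.4 CPM in WT libraries. Untreated 1 stood apart from the other 3 untreated libraries, which lay inside the WT range, and every treated library was below every library of both other groups. Untreated and WT libraries differed by -0.02 on the log2 scale (95% interval -0.88 to 0.83, edgeR adjusted p = 0.969). Its level in treated libraries was lower than in untreated libraries, with a log2 fold change of -1.28 (SE 0.40, adjusted p = 0.0259). Without untreated 1 that difference was -0.81 and did not pass (adjusted p = 0.0884), and it also missed the threshold without treated 3 (-1.22, adjusted p = 0.0632), without treated 4 (-1.25, adjusted p = 0.0622), in limma-voom (-1.14, adjusted p = 0.0623) and in limma on the deposited log2 FPKM values (-0.81, adjusted p = 0.0818). Of 28 alternatives in all, 17 kept this call, 9 kept its direction but missed the threshold, and 2 turned its sign. Treated and WT libraries differed by -1.30 (95% interval -2.18 to -0.43, adjusted p = 0.256), and Ccr1 was the 1 gene of the 9 whose treated and WT libraries did not overlap, against 2.21% of all tested genes that were lower and 2.68% that were higher without overlap. Untreated 1 also held the most mast cell RNA, with a 7-gene sum of 170 CPM, against 38.5 to 59.9 CPM in the other untreated, 16.9 to 27.6 CPM in treated and 17.4 to 37.2 CPM in WT libraries, with 1 of the 7 genes at 0 in WT 1 and in WT 3. WT 1, which had nearly as much Ccr1 at 18.6 CPM, had a mast cell sum of 19.1 CPM. The part of mast cell RNA in the Ccr1 level was not tested. The nearest gene in profile was the kinase gene Frk (0.44).

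Ccr2 (ENSMUSG00000049103.14, chromosome 9, 124101950 to 124113557, plus strand) encodes the receptor of Ccl2 and Ccl7 and marks classical monocytes. It was at 84.0, 89.5, 45.2 and 28.2 CPM in treated, 49.7, 134, 96.9 and 134 CPM in untreated, and 53.6, 49.1, 28.4 and 32.7 CPM in WT libraries. Untreated 1, the library with the most Ccr1, had the least Ccr2 of its group and lay below WT 1, while the other 3 untreated libraries were above all others. The log2 fold change between untreated and WT libraries was 1.34 (SE 0.40, edgeR adjusted p = 0.0214). It did not pass without WT 3 (1.20, adjusted p = 0.0601), WT 4 (1.24, adjusted p = 0.0578), untreated 2 (1.22, adjusted p = 0.0549) or untreated 4 (1.22, adjusted p = 0.0503), nor without WT 2 and WT 3 together (1.27, adjusted p = 0.123) or without the low-count filter (1.36, adjusted p = 0.0576). Of 28 alternatives in all, 18 kept this call, 8 kept its direction but missed the threshold, and 2 turned its sign. Treated libraries differed from untreated ones by -0.75 (95% interval -1.62 to 0.12, adjusted p = 0.162) and from WT libraries by 0.59 (95% interval -0.28 to 1.47, adjusted p = 0.644), and neither passed. The gene nearest to Ccr2 was the MHC class II gene H2-Ob (0.26), and the nearest member was Ccl2 (0.70).

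The proportion of both receptors did not overlap between treated and WT libraries. The ratio of Ccr2 to Ccr1 in FPKM (fragments per 1000 bases of transcript and 1e6 fragments, so that genes of different length can be compared) was 13.4, 13.5, 8.99 and 5.18 in treated, 1.92, 12.7, 9.10 and 13.7 in untreated, and 2.30, 4.46, 4.09 and 1.94 in WT libraries. Every treated library had a higher ratio than every WT library, and untreated 1 alone among the untreated libraries lay at the WT level. A list of 10 monocyte genes summed to 5331, 5812, 3570 and 2534 CPM in treated, 6950, 7478, 7537 and 8784 CPM in untreated, and 2757, 3173, 2994 and 4130 CPM in WT libraries, with none of the 10 at 0. As with Ccr2, treated 1 and 2 were above all WT libraries in this sum and treated 4 was below them. Ly6c2, a gene of this list, did not follow that order. It was at 2.22, 1.36, 2.91 and 1.31 CPM in treated and 1.74, 0.811, 1.13 and 1.69 CPM in WT libraries. Ly6c2 was thus a very small part of the sum, which rests on more abundant genes of the list. The part of monocyte RNA in that sum, and in the level of Ccr2, was not tested.

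**Figure D3:**
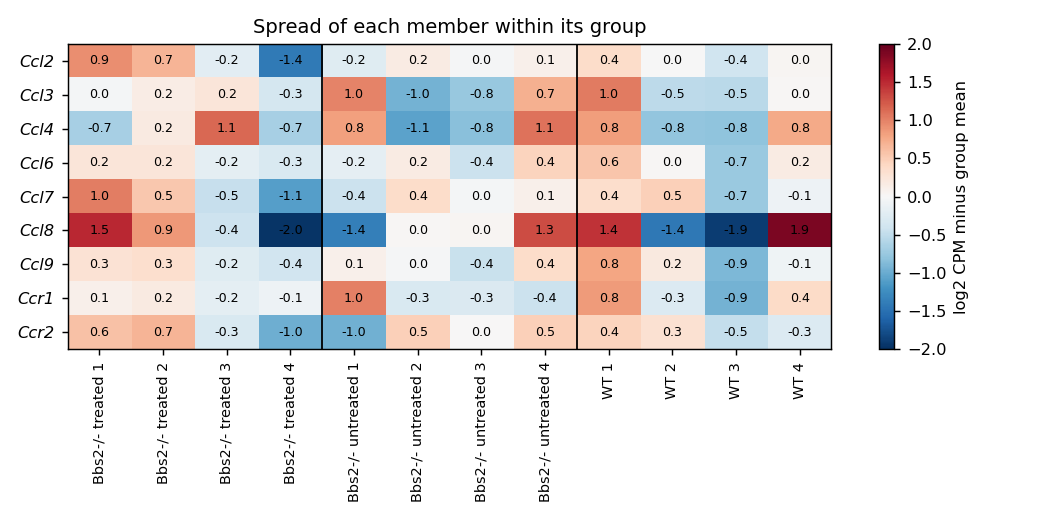
Log2 CPM of each gene minus its group mean in the 12 libraries, with treated, untreated and WT libraries left to right and a prior count of 2. Red is above and blue below the group mean, and the number in each cell is the difference. Ccl8 spans -1.9 to 1.9 within WT libraries, and in untreated 1 the value is 1.0 for Ccr1 and -1.0 for Ccr2.

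Levels were compared between genes in FPKM, which are set to the length of each gene. In untreated libraries Ccl6 was the most abundant of the 9 at a mean of 393 FPKM, followed by Ccl9 (145), Ccl2 (82.6), Ccl8 (65.2), Ccl7 (51.2), Ccr2 (30.3), Ccl3 (5.45), Ccr1 (4.17) and Ccl4 (3.53). The libraries of neighbours in this order overlapped except between Ccl6 and Ccl9, Ccl9 and Ccl2, and Ccr2 and Ccl3. In treated libraries Ccl6 (76.9 FPKM) stood apart from Ccl9 (27.6), Ccl8 (27.1), Ccl2 (23.2), Ccr2 (18.9) and Ccl7 (13.6), whose ranges overlapped their neighbours', and these stood apart from Ccr1 (1.79), which stood apart from Ccl3 (0.625) and Ccl4 (0.467). In WT libraries the order was Ccl6 (136 FPKM), Ccl9 (58.0), Ccl8 (15.6), Ccl2 (14.6), Ccr2 (12.5), Ccl7 (8.51), Ccr1 (4.47), Ccl3 (0.568) and Ccl4 (0.410), and among neighbours only Ccr1 and Ccl3 did not overlap. By group means Ccl6 and Ccl9 came first and second in all 3 groups, and Ccl4 was last in each. In single libraries, Ccl8 (54.2 FPKM) and Ccl2 (36.9 FPKM) were above Ccl9 (32.7 FPKM) in treated 1, and Ccl8 (35.2 FPKM) was above Ccl9 (34.03 FPKM) in treated 2.

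Summed over the 7 ligands, levels were 237, 210, 133 and 98.6 FPKM in treated, 624, 786, 582 and 989 FPKM in untreated, and 339, 221, 124 and 250 FPKM in WT libraries. The untreated sums were above all others. Ccl6 and Ccl9 together made up 51.3, 59.4, 68.3 and 82.0% of the sum in treated, 77.7, 72.5, 67.3 and 71.0% in untreated, and 83.7, 86.8, 85.3 and 77.5% in WT libraries. Ccl2, Ccl7 and Ccl8 made up 48.4, 40.0, 30.3 and 17.4% in treated, 20.1, 27.0, 31.9 and 27.6% in untreated, and 13 to 22.0% in WT libraries. In treated 1 these 3 ligands came close to the share of Ccl6 and Ccl9, whereas treated 4 had the shares of a WT library. Ccl3 and Ccl4 were at most 2.28% of the sum in any library.

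**Figure D4:**
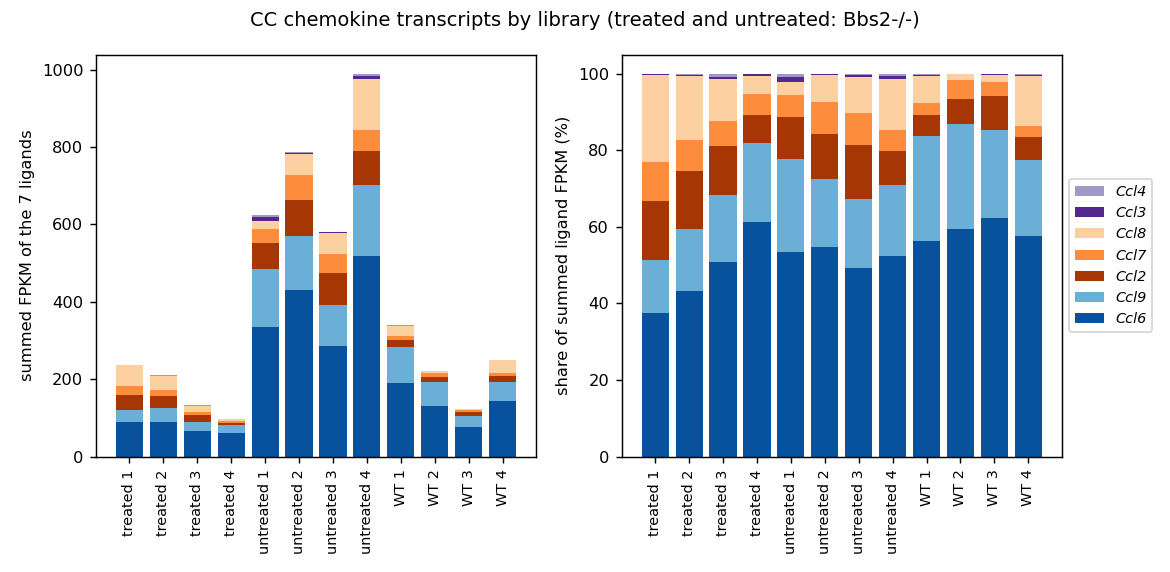
FPKM of the 7 ligands stacked by library (left) and as a share of their sum in percent (right), with treated Bbs2-/-, untreated Bbs2-/- and WT libraries left to right. The sums are 98.6 to 237 FPKM in treated, 582 to 989 FPKM in untreated and 124 to 339 FPKM in WT libraries, and the share of Ccl6 and Ccl9 (blue) varies most among treated libraries.

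Since macrophage genes moved in the same libraries, each gene was also expressed per 1000 counts of the 20 macrophage genes, none of which is a chemokine or receptor of this family. Ccl2 was then at 12.3, 13.7, 11.3 and 6.08 in treated, 5.47, 6.86, 8.20 and 6.82 in untreated, and 4.06, 6.78, 8.79 and 6.92 in WT libraries. The groups overlapped, and the 5.93-fold difference in CPM between untreated and WT libraries was 0.05 on the log2 scale under this scaling (SE 0.45, edgeR adjusted p = 0.917). Ccl6 was at 52.6 to 90.9 in treated, 47.3 to 71.8 in untreated and 73.8 to 120 in WT libraries, and Ccl9 at 40.3 to 63.8 in treated, 38.1 to 52.8 in untreated and 74.5 to 106 in WT libraries. For both genes the untreated libraries lay below all WT libraries, as did 87% of all tested genes, since this scaling moved the median log2 fold change of all tested genes to -2.65 between untreated and WT and to 2.85 between treated and untreated libraries. Relative to that shift Ccl2 was at 2.70, Ccl6 at 1.78 and Ccl9 at 1.63 between untreated and WT libraries. In CPM these values were 2.57, 1.61 and 1.40. Taking off the shift largely undoes the scaling, so these values are not a separate test of the sign under it.

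Ccr2 per 1000 macrophage counts was 37.3, 52.5, 40.6 and 31.7 in treated, 5.08, 12.9, 12.7 and 13.5 in untreated, and 16.0, 31.5, 31.4 and 20.9 in WT libraries. All 3 groups were apart, with untreated libraries lowest and treated libraries highest, although treated 4 was close to WT 2. Without overlap, 87% of all tested genes were lower in untreated than in WT libraries and 91% higher in treated than in untreated libraries, while 0.62% were higher in treated than in WT libraries. Ccr1 was at 2.21, 3.07, 3.61 and 4.84 in treated, 2.12, 0.797, 1.10 and 0.766 in untreated, and 5.53, 5.43, 5.86 and 8.56 in WT libraries, also without overlap and with WT libraries highest, and 0.125% of all tested genes were lower in treated than in WT libraries without overlap. In an edgeR fit with this scaling, 3 of the 9 genes were lower in untreated than in WT libraries (Ccl9 at -1.02, adjusted p = 0.0290, Ccr1 at -2.41, adjusted p = 1.47e-06, and Ccr2 at -1.17, adjusted p = 0.00949), against 91.7% of all tested genes called lower and 0.407% called higher. Between treated and untreated libraries 3 were higher (Ccl8 at 1.14, adjusted p = 0.0159, Ccr1 at 1.51, adjusted p = 0.00182, and Ccr2 at 1.88, adjusted p = 4.4e-05), against 93.8% of all tested genes called higher. Relative to the shift of all genes, Ccr1 was at 0.24 between untreated and WT and at -1.34 between treated and untreated libraries, and Ccr2 at 1.48 and -0.98. Ccl8 overlapped between those groups, at 2.48 to 11.4 in treated and 1.02 to 6.45 in untreated libraries, and its SE was 0.46 here and 0.90 in CPM. Treated and WT libraries gave 0 calls by edgeR among the 9 genes (1 at an unadjusted p under 0.05), against 0.1% called higher and 0.0251% called lower of all tested genes.

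**Figure D5:**
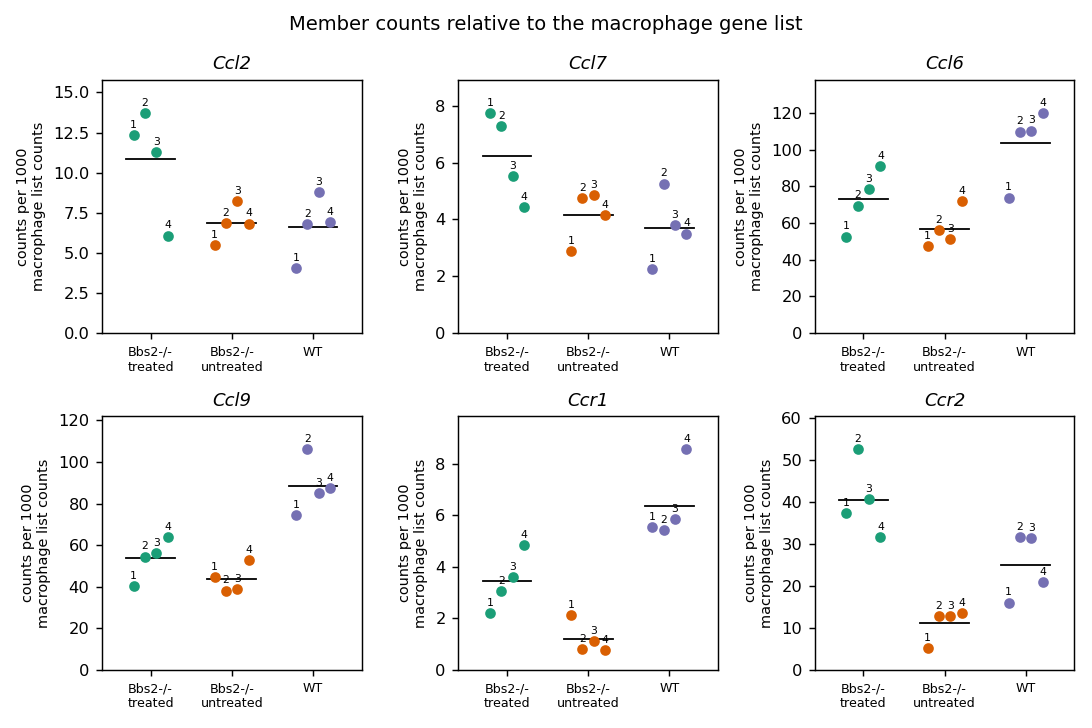
Counts of 6 genes per 1000 counts of the 20-gene macrophage list in the 12 libraries, with treated Bbs2-/-, untreated Bbs2-/- and WT libraries left to right. Points are libraries with their replicate number and bars are means of 4. Ccr2 is at 31.7 to 52.5 in treated, 5.08 to 13.5 in untreated and 16.0 to 31.5 in WT libraries, whereas Ccl2 overlaps between the groups.

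The rest of the CC family was described by lists of its other ligand and receptor genes. Of 15 other ligand genes 10 could be tested, and between untreated and WT libraries 2 were higher and 2 lower, against 19.6% called higher and 19.7% called lower of all tested genes. Ccl5, a T cell and monocyte attractant, averaged 6.01 CPM in untreated and 2.16 CPM in WT libraries (1.47, edgeR adjusted p = 0.00645), and Ccl22, made by dendritic cells and macrophages, 2.90 and 1.66 CPM (0.80, adjusted p = 0.0462). Ccl27a (-1.28, adjusted p = 0.000853) and Ccl25 (-0.75, adjusted p = 0.0411) were lower, but Ccl27a had no whole count in any library and both overlap genes on the other strand. Between treated and untreated libraries Ccl22 (-1.22, adjusted p = 0.00729) and Ccl5 (-1.07, adjusted p = 0.0304) were lower and Ccl27a was higher (1.19, adjusted p = 0.00128).

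Among the other receptor genes, Ccr3, known from eosinophils and mast cells, had 2 to 6 counts in treated, 72 to 175 in untreated and 0 to 13 in WT libraries, and passed the low-count filter through the untreated group. All its untreated libraries were above all others. The decoy receptor gene Ackr1 (1.43, adjusted p = 0.00364) and Ccr7, which guides leukocytes to lymph nodes (1.39, adjusted p = 0.0234), were higher in untreated than in WT libraries, and the scavenging receptor gene Ackr4 was higher in treated than in untreated libraries (2.50, adjusted p = 0.00246). Ackr1 overlaps Cadm3 on the same strand and had a whole count in 1 of 12 libraries, so its level is uncertain. Ackr4 overlaps genes on the other strand. None of the ligand and receptor genes named in these paragraphs passed between treated and WT libraries in edgeR or limma-voom. Of all tested genes edgeR called only 0.257% there. DESeq2 called Ackr4 higher in treated than in WT libraries (1.70, adjusted p = 0.0388, against an edgeR adjusted p of 0.224).

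Genes that carry the receptor signal were described by a list of 26, all of them tested. Of these 20 were higher in untreated than in WT libraries, against 19.6% of all tested genes. In treated libraries 22 were lower than in untreated ones, against 18.8% of all tested genes. Between treated and WT libraries 0 were called by edgeR (2 at an unadjusted p under 0.05, 1 by DESeq2, 0 by limma-voom). Of all 15968 tested genes edgeR called only 0.257% there, and DESeq2 called 174 higher and 108 lower. The median log2 fold change was 1.62 between untreated and WT, -1.48 between treated and untreated and -0.02 between treated and WT libraries. The smallest p-values between untreated and WT libraries belonged to the arrestin gene Arrb2 (1.53, edgeR adjusted p = 3.11e-05), the receptor kinase gene Grk2 (0.83, adjusted p = 6.75e-05), the tyrosine kinase gene Lyn (1.37, adjusted p = 0.000266) and Elmo1, which acts with Dock proteins in cell migration (1.09, adjusted p = 0.000407). Between treated and untreated libraries they belonged to Arrb2 (-1.48, adjusted p = 4.06e-05), Grk2 (-0.69, adjusted p = 0.000154) and the regulators of G protein signalling Rgs18 (-3.23, adjusted p = 0.000290) and Rgs10 (-2.76, adjusted p = 0.000296). Between treated and WT libraries Plcb3, Grk6, Gnb1 and Pik3r5 came first, with adjusted p of 0.269, 0.341, 0.556 and 0.558.

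A list of 24 genes that act in chemokine gene induction, all tested, had 20 higher in untreated than in WT libraries, against 19.6% of all tested genes, and 17 lower in treated than in untreated libraries, against 18.8%. There were 0 called by edgeR between treated and WT libraries (4 at an unadjusted p under 0.05, 2 by DESeq2, 0 by limma-voom). Of all 15968 tested genes edgeR called only 0.257% there, and DESeq2 called 174 higher and 108 lower. The median log2 fold change was 0.85 between untreated and WT, -0.71 between treated and untreated and 0.12 between treated and WT libraries. The smallest p-values between untreated and WT libraries were those of the NF-kB subunit gene Nfkb2 (0.94, edgeR adjusted p = 0.000192), the lipoprotein sensor gene Tlr2 (2.15, adjusted p = 0.000217), Nfkb1 (0.75, adjusted p = 0.000405) and Stat3 (0.66, adjusted p = 0.000411). Between treated and untreated libraries they were those of the kinase gene Ikbke (-1.90, adjusted p = 0.000226), Nfkb2 (-0.83, adjusted p = 0.000345), the NF-kB regulator gene Nfkbiz (-1.44, adjusted p = 0.000407) and Spi1, which encodes the myeloid transcription factor PU.1 (-2.56, adjusted p = 0.000572). Between treated and WT libraries Cebpb, Stat3, Jun and Relb came first, with adjusted p of 0.208, 0.226, 0.370 and 0.399. These genes act in many cell types and pathways, and the lists were chosen with earlier results of these data known.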

How the data were processed

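Adipose RNA of 12 libraries was sequenced with a stranded messenger RNA kit, per the labels' protocols, with mm10 as the genome, per the submitters' processing notes. The authors deposited expected counts per gene, unscaled, and log2 FPKM values whose upper quartile was 3.96 in every library. The ratio of FPKM to count was constant only with an offset of 1, so the deposited log2 values are log2(FPKM + 1), and FPKM was rebuilt from them. The aligner, the counter and its strand setting were not given in the sources used here.

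Rounded expected counts entered edgeR 4.0.16 under R 4.3.3 (TMM, filterByExpr by group, robust quasi-likelihood test), in 1 fit of 12 libraries with group as its only term. P-values were adjusted by Benjamini-Hochberg over 15968 genes, with a threshold of 0.05. SE is the log2 fold change divided by the root of F. CPM is per 1e6 of the TMM-scaled count total. Symbols were found for 52207 of 53431 identifiers (51027 with the same version) in a GENCODE annotation of the same build. The chi-square between replicates was 16.9 to 84.9 per degree of freedom, more than sampling noise. The fit was tested on simulated data. Depth limits Ccl3 and Ccl4, at 1 to 15 counts outside the untreated group.

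Likeness was the root mean square distance between centred log2 CPM profiles, over genes whose mean log2 CPM was 1 or more. Named were the 9 genes, the closest gene to each outside the family, every other CC family gene that passed in any comparison (save an item that is not reported here), and the 4 smallest p-values per pathway list and comparison. The members and lists were chosen with earlier results of these data known. Promoter windows came from RefSeq and were aligned with Biopython 1.88. Alternatives used DESeq2 1.42.0, limma 3.58.1, other scalings, filters and units, and libraries left out.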

Additional observations from a re-analysis of the deposited data

Results flagged for a closer look

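Of 27 sets of 4 libraries (9 genes in 3 groups), 1 held a library far from the others. Ccr1 was at 20.8 CPM in untreated 1, against 7.60 to 8.39 CPM in the other 3 untreated libraries, and the gap was 0.940 of the range of the group, above Dixon's critical value for 4 values. Chance marks about 1 in 20 such sets. The mast cell list was at 170 CPM in the same library, against 38.5 to 59.9 CPM in the other 3, and its part in the Ccr1 value was not tested. Without untreated 1, Ccr1 differed between treated and untreated libraries by -0.81 (edgeR adjusted p = 0.0884).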

How the results depend on the processing

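Of 9 genes, 7 were called between untreated and WT libraries, 7 between treated and untreated libraries and 0 between treated and WT libraries. Leaving out each library in turn gave 6 to 7, 6 to 7 and 0. Scaling to the macrophage list gave 3 lower and 3 higher, against 91.7% called lower and 93.8% called higher of all tested genes. It moved the median log2 fold change of all tested genes to -2.65 and 2.85, and relative to that shift the 9 genes lay at 0.24 to 3.66 between untreated and WT and at -3.24 to -0.98 between treated and untreated libraries. Taking off the shift largely undoes the scaling, so these values do not show that the 9 genes kept their direction under it. A minimum log2 fold change of 1 gave 3 and 3, with no sign turned from the main fit. It called 390 of all tested genes higher between untreated and WT libraries and 495 lower between treated and untreated libraries. With the macrophage level as a covariate 0 and 0 were called, but 86.7% and 92.9% of the variance of that level lay between those groups, so macrophage content and group cannot be told apart there. The covariate fit called 8 higher and 41 lower of all tested genes in the first and 1 and 1 in the second comparison. Between treated and WT libraries DESeq2 called 1 gene, and the covariate fit called 1, in both cases Ccl9 (-1.05, adjusted p = 0.0358, and -0.84, adjusted p = 0.0481), against edgeR adjusted p of 0.110 to 0.452 for Ccl9 with a library left out. Of all tested genes DESeq2 called 108 and the covariate fit 23 lower in that comparison.

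Signs turned as follows. Macrophage scaling shifted the median of all genes as given above, and under no alternative was the cause of the turns tested. Between untreated and WT libraries, macrophage scaling gave Ccl6 -0.87, Ccl8 -0.17, Ccl9 -1.02 and Ccr2 -1.17, and the covariate gave Ccl8 -3.08, Ccl9 -0.49 and Ccr2 -0.34. Ccr1, near 0 in CPM, was 0.12 by library size without TMM, 0.70 without the 4 libraries with ciliated epithelium RNA, and -0.50 to 0.31 with a library left out. Between treated and untreated libraries, macrophage scaling gave Ccl2 0.67, Ccl6 0.36, Ccl7 0.59, Ccl8 1.14, Ccl9 0.30, Ccr1 1.51 and Ccr2 1.88, and the covariate gave Ccl2 0.13, Ccl7 0.17, Ccl8 4.26, Ccr1 0.71 and Ccr2 0.98. Between treated and WT libraries, leaving out a library gave Ccl3 -0.082 to 0.77 and Ccl4 -0.63 to 0.57, and leaving out WT 2 and WT 3 gave Ccl3 -0.40, Ccl4 -0.57 and Ccl8 -0.026. Over all alternatives 214 of 251, 221 of 251 and 239 of 249 single-gene values kept their direction and their side of the threshold for untreated against WT, treated against untreated and treated against WT.

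Library size in place of TMM put 69.0% of all calls between untreated and WT libraries on the higher side, against 49.9% with TMM, with a median log2 fold change of all genes of 0.16. Between treated and untreated libraries it put 35.5% there, against 49.6%. DESeq2 called 174 genes higher and 108 lower between treated and WT libraries, where edgeR called 28 and 13. Replicate numbers were not taken to pair the samples. Deviations from the group means of same-numbered libraries correlated at 0.0999 to 0.308 between treated and untreated libraries, where 3 of 4 correlated best with their own number, at -0.149 to 0.278 between treated and WT and at -0.0214 to 0.0164 between untreated and WT libraries. With the replicate number as a block 7, 7 and 0 members were called, and 7 genes higher and 2 lower of all tested genes between treated and WT libraries. That fit called 3083 of all tested genes higher between untreated and WT and 2895 lower between treated and untreated libraries. The planned log2(FPKM + 1) values equal the deposited ones, so no separate value was made for them, and log2 of FPKM plus 0.1 was added after seeing the data. Ccl4 was not tested under the filter of 1 CPM in 4 libraries, and Ccl3 and Ccl4 were not tested in the fit of treated and WT libraries alone.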
